A study of Mus musculus with 15 samples.

Results

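The elastic fibre and microfibril genes described here are Eln, Fbn1, Fbln1, Fbln2, Fbln5, Mfap2, Mfap4, Mfap5 and Emilin1, chosen by name. All 9 were found among the 55335 gene IDs of the FPKM table. FPKM is a fragment count scaled to transcript length and to the number of mapped fragments, so levels can be compared between genes. Poly(A) RNA was sequenced from tibial subchondral bone, which underlies the cartilage of the knee, of 15 male mice, 5 in each of 3 groups. The sham group was wild-type C57BL/6J mice in which the joint capsule was opened and the ligament left intact. The DMM wild-type group had the medial meniscotibial ligament cut (destabilization of the medial meniscus, DMM), which loads the joint abnormally and leads to osteoarthritis. The DMM cKO group had the same operation and carried Dmp1-Cre with both Pvalb alleles floxed, a conditional knockout of parvalbumin aimed at osteocytes, the cells within bone matrix. All mice were operated on at 8 weeks of age and bone was taken 8 weeks later, and knockout mice with a sham operation were not analysed here. In the text, wild-type bones are meant unless cKO is written.

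Elastic fibres let skin, vessels, ligaments and joint capsules recoil after stretch. They consist of a core of cross-linked elastin laid on microfibrils, which are bundles of fibrillin with associated glycoproteins. Fibulins and emilins bridge elastin and microfibrils, and microfibrils also hold latent TGF-beta and BMPs in the matrix. In bone, fibrillin microfibrils occur without an elastin core, and loss of fibrillin-1 alters skeletal growth and bone mass in mice.

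Promoter windows of 300 bases were taken from RefSeq (GRCm38.p6), reaching from 250 bases before an annotated start to 50 bases after it. RefSeq listed 9 such windows for 6 of the 9 genes: Fbn1, Fbln1, Fbln2, Fbln5, Mfap2 and Emilin1. The windows of Mfap2, the gene with the clearest separation between operated and sham bones, are shown with a window of Fbln5, whose level hardly moved. Each is written 5′ to 3′ on the strand of its gene, and capitals mark every motif match. Mfap2 has a pair of overlapping windows on the plus strand, chr4:141010431-141010730 and chr4:141010174-141010473, and that of Fbln5 is on the minus strand at chr12:101819070-101819369.
Mfap2, downstream start: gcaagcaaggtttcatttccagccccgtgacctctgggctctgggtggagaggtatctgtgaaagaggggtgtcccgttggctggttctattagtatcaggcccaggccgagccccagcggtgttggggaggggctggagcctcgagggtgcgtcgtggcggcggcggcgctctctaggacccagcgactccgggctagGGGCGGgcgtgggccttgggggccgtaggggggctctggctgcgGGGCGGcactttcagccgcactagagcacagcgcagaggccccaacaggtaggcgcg
Mfap2, upstream start: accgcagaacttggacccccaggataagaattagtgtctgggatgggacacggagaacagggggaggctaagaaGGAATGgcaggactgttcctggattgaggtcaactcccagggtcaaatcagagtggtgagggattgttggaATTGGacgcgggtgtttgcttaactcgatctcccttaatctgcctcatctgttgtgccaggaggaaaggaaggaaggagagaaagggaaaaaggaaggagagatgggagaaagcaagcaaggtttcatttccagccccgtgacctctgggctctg
Fbln5: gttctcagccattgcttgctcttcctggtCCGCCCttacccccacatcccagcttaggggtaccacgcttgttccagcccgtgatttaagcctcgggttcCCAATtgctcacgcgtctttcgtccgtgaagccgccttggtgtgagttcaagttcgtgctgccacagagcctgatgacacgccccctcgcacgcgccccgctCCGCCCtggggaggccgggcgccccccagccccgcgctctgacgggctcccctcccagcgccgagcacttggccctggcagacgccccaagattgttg

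Motifs were searched on both strands. The TATA box was spelled TATAAA, the TEAD site CATTCC and the AP-1 site TGANTCA. The Sp1 GC box was GGGCGG, and the E-box was CACGTG. The CCAAT box was searched by the letters of its name, and the SMAD palindrome as GTCTAGAC. No matches overlapped one another in the windows of these genes. A GC box was in 5 of the 9 windows, against 35.7% of all 32851 windows in the table. A CCAAT box was in 3 (37.4% of all), an E-box in 2 (7.15%), as 1 site shared by overlapping windows of Fbln1, and a TEAD site in 1 (14.7%), the upstream window of Mfap2. The TATA box, AP-1 site and SMAD palindrome, present in 13.6%, 7.81% and 0.213% of all windows, were in 0 of the 9. The downstream window of Mfap2 held 22 CpG dinucleotides and the upstream one 6, where the median of all windows was 7. The 2 Mfap2 starts thus differed from each other in base composition. These matches describe the letters in the windows and were not tested against the expression values, although the genes printed were picked by expression. The other Fbln5 window, not printed, held 0 matches.

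The libraries gave between 12592 and 13510 gene IDs with at least 1 FPKM, and their total FPKM ran from 375453 to 468423. Read counts were not given, so depth is unknown and low values carry an unknown counting error. All 10 osteoblast and osteocyte markers were above the filter, with a summed level of 895.9 to 2259 FPKM. The targeted gene Pvalb was present in the cKO libraries at 23.7 to 166 FPKM, within the sham range of 15.8 to 490.1 FPKM. The cKO range overlapped the DMM range of 33 to 375 FPKM, and the lowest cKO library was below all DMM ones. The log2 difference of Pvalb between cKO and wild-type after DMM was -0.38 (SE 0.94, limma adjusted p = 0.95). Whether carried muscle or other cells outside the osteocytes gave this Pvalb was not tested, so these bulk levels cannot tell how far osteocytes lost it. Fast skeletal muscle markers ran from 132.9 to 4866 summed FPKM over the libraries, and DMM replicate 3 and cKO replicates 1 and 4 lay farthest out on the first principal component of all genes.

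Emilin1 was the most abundant of these genes in 15 of 15 libraries, and elastin itself was near the bottom. Emilin1, an elastin-binding glycoprotein that restrains TGF-beta, averaged 18.4 ± 1.93 FPKM in sham bones (SD, n = 5), above 81.2% of the genes tested. Fbln5, a fibulin that tethers elastin to cells and is needed for elastic fibre assembly, averaged 7.86 ± 0.455 FPKM and was second in 14 of 15 libraries. Sham ranges did not overlap between Emilin1 and Fbln5, nor between Fbln5 and the next gene. Below them, neighbours in the sham order overlapped: Fbn1 (3.16 ± 0.882 FPKM), Mfap2 (2.88 ± 1.07), Fbln2 (2.2 ± 1.06), Fbln1 (2.19 ± 0.856), Eln (1.76 ± 0.838), Mfap5 (0.799 ± 0.52) and Mfap4 (0.28 ± 0.247). Mfap4, a fibrinogen-related protein of microfibrils, was the lowest of the 9 in 15 of 15 libraries. Emilin1 alone made up 28.2% to 54.6% of the summed FPKM of the 9 genes. The remaining 8 genes summed to between 14.6 and 28 FPKM in sham, 27.4 and 35.7 in DMM and 22.5 and 45.5 in cKO libraries.

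**Figure D1:**
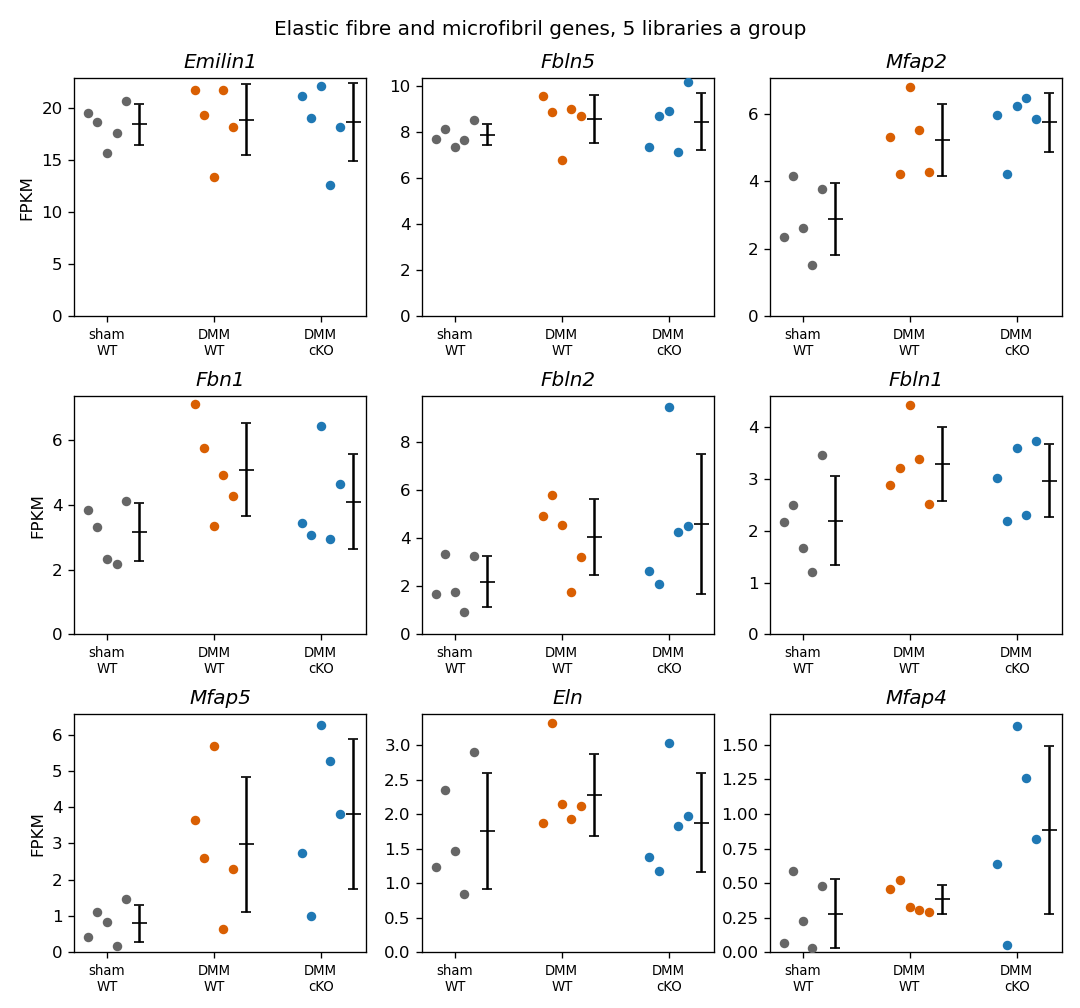
FPKM of each gene (vertical axes start at 0) in the 5 libraries of the sham wild-type, DMM wild-type and DMM cKO groups, with the mean and SD to the right of the points. The 10 operated libraries of Mfap2 lie between 4.21 and 6.79 FPKM, above all sham libraries, whereas Emilin1 and Fbln5 overlap between all groups.

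The first comparison set DMM against sham surgery in wild-type mice, and none of the elastic fibre genes passed the test over all genes. By ratio of means, Mfap5, Fbln2, Mfap2 and Fbn1 had the largest differences. Fibrillin-1, encoded by Fbn1, is the structural backbone of microfibrils. Fbn1 was 3.85, 3.31, 2.31, 2.18 and 4.13 FPKM in sham replicates 1 to 5 and 7.09, 5.76, 3.35, 4.93 and 4.27 FPKM in DMM replicates 1 to 5. The groups overlapped, and 4 of 5 DMM libraries were above the highest sham library. The log2 difference was 0.54 (SE 0.21, 95% interval 0.11 to 0.98, limma adjusted p = 0.504; two-sided exact permutation p = 0.0317 with 5 libraries per group). Of the transcribed bases of Fbn1 in GENCODE M21, 20.1% overlap exons of Gm9913 on the opposite strand, a gene at 0.0639 FPKM or less in all libraries.

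Mfap2 encodes MAGP-1, a small glycoprotein that binds fibrillin and TGF-beta. Mfap2 was 2.34, 4.15, 2.62, 1.53 and 3.78 FPKM in the sham libraries and 5.32, 4.21, 6.79, 5.53 and 4.28 FPKM in the DMM libraries. The groups did not overlap, although the lowest DMM library stood only just above the highest sham library. The ratio of means was 1.81 and the log2 difference 0.71 (SE 0.18, 95% interval 0.33 to 1.09, limma adjusted p = 0.244). Its exact permutation p of 0.0079 (two-sided, n = 5 per group) is the smallest that 5 against 5 can give. Among all genes tested, 1.48% were likewise without overlap and higher after DMM, and Mfap2 was 1 of the 8 elastic fibre genes tested that were.

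Mfap5 encodes MAGP-2, the paralogue of MAGP-1, which also binds fibrillin and carries a cell-binding motif. Mfap5 was 0.428, 1.1, 0.831, 0.165 and 1.47 FPKM in sham and 3.64, 2.61, 5.69, 0.634 and 2.3 FPKM in DMM libraries. It had the largest ratio of means of the 9 genes, 3.73, and 4 of 5 DMM libraries were above all sham libraries, while DMM replicate 4 lay within the sham range. Mfap5 reached 1 FPKM in 2 sham, 4 DMM and 5 cKO libraries, so it met the filter only through the operated groups. The log2 difference was 1.05 (SE 0.38, 95% interval 0.24 to 1.86, limma adjusted p = 0.457; two-sided exact permutation p = 0.0317). At these low levels the size depends on the pseudocount, and with 0.1 in place of 1 it was 1.74, and 2.15 for cKO against sham. Relative to Mfap2 in the same library, Mfap5 was 0.252 ± 0.111 in sham, 0.559 ± 0.272 in DMM and 0.634 ± 0.298 in cKO bones (SD, n = 5 each), with overlapping ranges. Mfap5 was below Eln in all 5 sham libraries and above it in 3 of 5 DMM and 4 of 5 cKO libraries.

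Mfap4 did not reach the filter of 1 FPKM in at least 5 libraries and was not tested with the other 8. Its sham libraries had 0.0681, 0.589, 0.228, 0.0347 and 0.481 FPKM and its DMM libraries 0.46, 0.523, 0.327, 0.306 and 0.294 FPKM, overlapping (two-sided exact permutation p = 0.333 with 5 libraries per group). The DMM values were the less scattered, lying inside the sham range. A part of its exons, 4.63%, overlaps Mapk7 on the opposite strand, which was at 4.46 to 7.97 FPKM, and the sources used here do not say whether counting used strand.

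Fbln1 and Fbln2 encode fibulins of vessel walls, basement membranes and loose connective tissue. Fbln1 was 2.16, 2.5, 1.66, 1.21 and 3.45 FPKM in sham and 2.88, 3.21, 4.43, 3.38 and 2.52 FPKM in DMM libraries. The sham group was lower except for replicate 5, which lay above all DMM libraries but replicate 3. The log2 difference was 0.45 (SE 0.18, 95% interval 0.07 to 0.83, limma adjusted p = 0.551; two-sided exact permutation p = 0.0714). Fbln2 was 1.68, 3.35, 1.77, 0.931 and 3.26 FPKM in sham and 4.92, 5.79, 4.56, 1.74 and 3.2 FPKM in DMM libraries. Its DMM libraries were split, 3 above the sham range and 2 within it, and the log2 difference was 0.66 (SE 0.33, 95% interval -0.05 to 1.36, limma adjusted p = 0.784; two-sided exact permutation p = 0.0952). Fbln5 was 7.7, 8.1, 7.35, 7.65 and 8.52 FPKM in sham and 9.53, 8.85, 6.79, 9 and 8.67 FPKM in DMM libraries. Its sham values were the tightest of the 9 genes, with a coefficient of variation of 5.79%, and DMM replicate 3 was the lowest of all. The log2 difference of Fbln5 was 0.10 (SE 0.10, 95% interval -0.10 to 0.31, limma adjusted p = 0.917; two-sided exact permutation p = 0.246).

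Elastin and Emilin1 had 95% intervals that included 0. Eln encodes tropoelastin, the soluble precursor of the elastic core. Eln was 1.24, 2.34, 1.47, 0.851 and 2.9 FPKM in sham and 1.87, 3.32, 2.15, 1.92 and 2.12 FPKM in DMM libraries, with only DMM replicate 2 above the sham range. The log2 difference was 0.28 (SE 0.21, 95% interval -0.16 to 0.72, limma adjusted p = 0.917; two-sided exact permutation p = 0.246). Emilin1 was 19.5, 18.7, 15.6, 17.5 and 20.7 FPKM in sham and 21.7, 19.3, 13.4, 21.7 and 18.2 FPKM in DMM libraries. The DMM libraries spread to both sides of the sham range, and the log2 difference was 0.02 (SE 0.15, 95% interval -0.30 to 0.34, limma adjusted p = 0.981; two-sided exact permutation p = 0.905). The intervals of Fbln5 and Emilin1 leave out a change as large as the estimates for Mfap2 or Mfap5. The interval of Eln, up to 0.72, includes the Mfap2 estimate of 0.71. Whether genes differed from each other in their change was not tested.

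Of the 8 genes tested, 0 had an adjusted p under 0.05 in this comparison, and the share among all genes tested was 0%. All 8 had a log2 difference above 0 (median 0.50), as did 50.4% of the 13653 genes tested (median 0.00). With limma p under 0.05 before adjustment there were 4 of the 8, all higher (Mfap2, Mfap5, Fbn1 and Fbln1). Among all genes tested, 5.5% were higher with such a p, and 6.93% had it in either direction. These genes share cells and libraries, so the counts are not independent of each other. Mfap5 is in these counts although it met the filter only through the operated groups. In bulk tissue, a change in the number of cells of a type and in RNA per cell cannot be told apart.

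**Figure D2:**
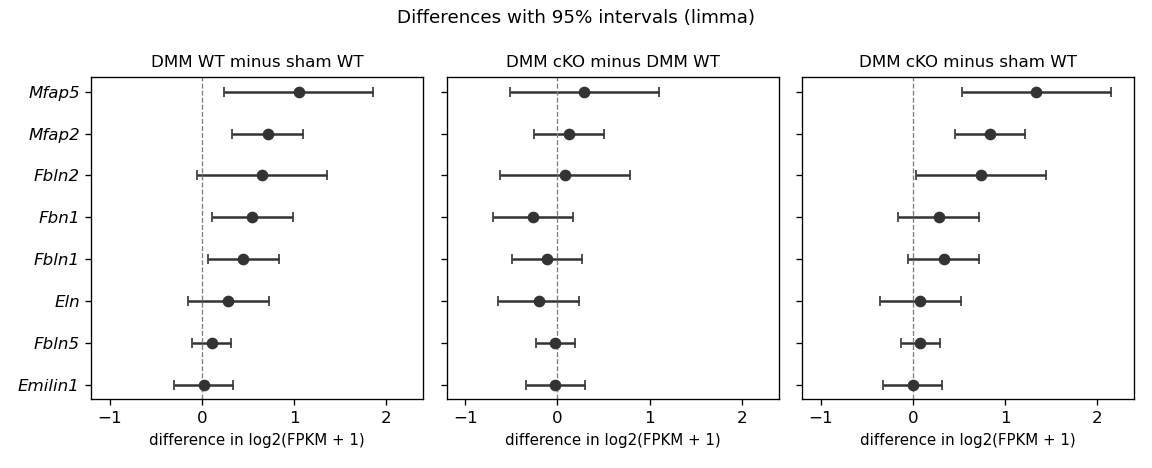
Difference in log2(FPKM + 1) for the 8 genes tested in each of the 3 comparisons (horizontal axis), with 95% intervals from limma; the dashed line marks 0. Intervals of Mfap5, Mfap2, Fbn1 and Fbln1 lie above 0 for DMM minus sham, and all intervals include 0 for cKO minus wild-type after DMM.

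The comparison of cKO with wild-type bones after DMM holds surgery constant and varies the genotype. No elastic fibre gene was separated between the genotypes, where 0.132% of all genes tested were separated and higher in the cKO and 0.249% separated and lower. Differences went both ways. Fbn1 was 3.42, 3.05, 6.42, 2.94 and 4.64 FPKM in cKO replicates 1 to 5, and all were within or below the wild-type DMM range (log2 difference -0.27, SE 0.21, 95% interval -0.71 to 0.17, limma adjusted p = 0.935; two-sided exact permutation p = 0.254). Mfap2 was 5.96, 4.23, 6.23, 6.47 and 5.84 FPKM, inside the wild-type DMM range (log2 difference 0.12, SE 0.18, 95% interval -0.26 to 0.50, limma adjusted p = 0.935; exact permutation p = 0.389). Mfap5 was 2.75, 1.02, 6.25, 5.27 and 3.81 FPKM, with cKO replicate 3 above all wild-type libraries (log2 difference 0.29, SE 0.38, 95% interval -0.52 to 1.10, limma adjusted p = 0.935; exact permutation p = 0.532). This Mfap5 difference was 0.004 without wild-type DMM replicate 4, 0.57 without cKO replicate 2 and 0.06 with fast muscle level as a covariate. The width of its interval leaves room for a difference of more than 1 log2 unit.

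Mfap4 was 0.641, 0.0536, 1.64, 1.26 and 0.82 FPKM in the cKO libraries. Of these, 4 were above all 5 wild-type DMM libraries and replicate 2 was below all of them, a ratio of means of 2.31 (two-sided exact permutation p = 0.151 with 5 libraries per group). Without a filter on low values, limma gave Mfap4 a log2 difference of 0.38 (SE 0.20, adjusted p = 0.905). Fbln2 was 2.63, 2.11, 9.46, 4.27 and 4.5 FPKM in the cKO libraries, its replicate 3 far above the others (log2 difference 0.08, SE 0.33, 95% interval -0.62 to 0.79, limma adjusted p = 0.965; exact permutation p = 0.825). Without cKO replicate 3 that difference of Fbln2 turned to -0.18.

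For Fbln1, the cKO libraries had 3.02, 2.19, 3.6, 2.3 and 3.72 FPKM, overlapping the wild-type ones (log2 difference -0.11, SE 0.18, 95% interval -0.50 to 0.27, limma adjusted p = 0.935; exact permutation p = 0.492). Fbln5 was 7.32, 8.68, 8.91, 7.13 and 10.1 FPKM (log2 difference -0.02, SE 0.10, 95% interval -0.23 to 0.19, limma adjusted p = 0.968; exact permutation p = 0.881). Eln was 1.38, 1.17, 3.03, 1.83 and 1.97 FPKM, with 3 cKO libraries under all wild-type DMM ones (log2 difference -0.20, SE 0.21, 95% interval -0.64 to 0.24, limma adjusted p = 0.935; exact permutation p = 0.278). Emilin1 was 21.1, 19, 22.1, 12.6 and 18.1 FPKM (log2 difference -0.02, SE 0.15, 95% interval -0.34 to 0.30, limma adjusted p = 0.981; exact permutation p = 0.849). Of the 8 genes, 0 passed, where 0.00732% of all genes tested did, and 3 were higher and 5 lower in the cKO, where 45.1% of all genes tested were higher. With p under 0.05 before adjustment there were 0 of the 8, and 3.25% of all genes tested.

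Bones of cKO mice after DMM were also set against sham wild-type bones, a comparison that changes surgery and genotype together and shares its sham libraries with the first and its cKO libraries with the second. Mfap2 was again without overlap, with all 5 cKO libraries from 4.23 to 6.47 FPKM above the highest sham library of 4.15 FPKM. The ratio of means was 1.99 and the log2 difference 0.83 (SE 0.18, 95% interval 0.45 to 1.21, limma adjusted p = 0.233; two-sided exact permutation p = 0.0079, the smallest possible). Of all genes tested, 1.2% did not overlap and were higher in this comparison. Mfap5 had a ratio of means of 4.78 and a log2 difference of 1.34 (SE 0.38, 95% interval 0.53 to 2.15, limma adjusted p = 0.456; exact permutation p = 0.0238), with 4 of 5 cKO libraries above all sham ones. Counted from the highest positive log2 difference down, Mfap5 ranked 21 and Mfap2 ranked 82 among 13653 genes tested. Genes lower in the cKO are not ahead of them in this order, and Mfap5 met the filter only through the operated groups.

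Other differences against sham were smaller or less even over the libraries. Fbln2 had a log2 difference of 0.74 (SE 0.33, 95% interval 0.03 to 1.45, limma adjusted p = 0.469; two-sided exact permutation p = 0.0952), with 3 of 5 cKO libraries above the sham range. Mfap4 had a ratio of means of 3.15, and 4 of 5 cKO libraries were above all sham ones (exact permutation p = 0.0794). Fbln1 had a log2 difference of 0.33 (limma adjusted p = 0.473) and Fbn1 one of 0.28 (adjusted p = 0.513). Those of Fbln5, Eln and Emilin1 were 0.08, 0.08 and 0.00 (adjusted p = 0.663, 0.853 and 0.994). Of the 8 genes, 0 passed, against 0.0293% of all genes tested, and 7 were higher (median 0.31), against 47.9% of all genes tested (median -0.01). With p under 0.05 before adjustment there were 3 of the 8 (Mfap2, Mfap5 and Fbln2), all higher, against 5.84% of all genes tested higher and 10.5% in either direction.

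The genes did not vary as a block across libraries. Pearson r of log2(FPKM + 1) over the 15 libraries, given as a description since the libraries share groups and tissue composition, was above 0.5 for 20 of the 36 pairs and below 0 for 3. Fbln2, Mfap2, Mfap4 and Mfap5, grouped after their values were seen, had r of 0.68 to 0.88 with each other, and 0.54 to 0.84 once group means were removed. Emilin1 had r of -0.23 to 0.05 with these genes, and its highest r was 0.64, with Fbln5. Fbn1, the backbone gene, had r of 0.72 with Fbln5, 0.60 with Emilin1, 0.69 with Fbln2 and 0.49 with Mfap2. Eln had its highest r with Fbln2 (0.80). Fbln1, outside the group of Fbln2, Mfap2, Mfap4 and Mfap5, had r of 0.80 with Mfap2, 0.69 with Fbln2, 0.67 with Mfap5 and 0.48 with Mfap4.

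**Figure D3:**
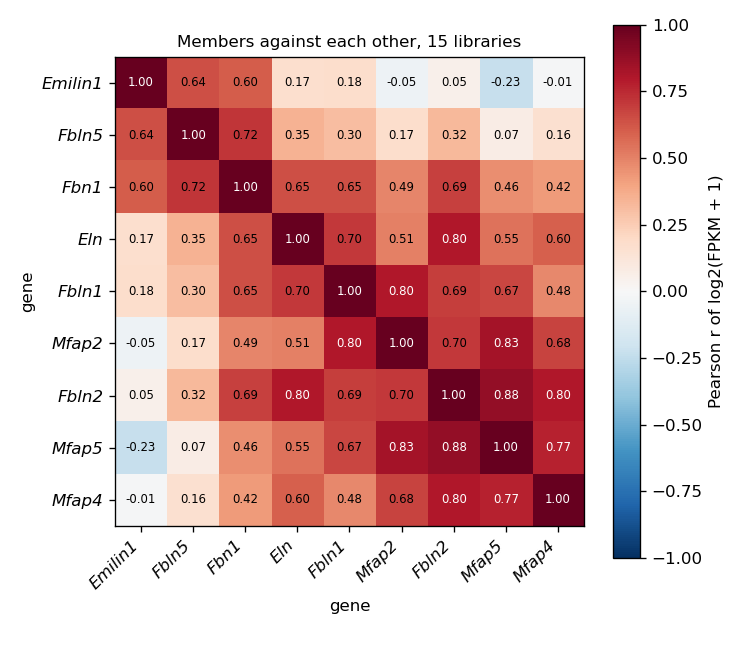
Pearson r of log2(FPKM + 1) over 15 libraries for each pair of the 9 genes (both axes list the genes), from blue (-1) to red (1). Fbln2, Mfap2, Mfap5 and Mfap4 form a block of high values at the lower right, between 0.68 and 0.88, and Emilin1 has values of -0.23 to 0.05 with them.

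Single libraries stood out in several of the genes at once. Sham replicate 4 was the lowest of its group for 7 of 9 genes, and sham replicate 5 the highest for 6. In the cKO group, replicate 3 was the highest for 6 genes and replicate 2 the lowest for 6. In the DMM wild-type group, replicates 1, 2 and 3 were each the highest for 3 genes. Sham replicate 4 also had the lowest fast muscle level of all libraries (132.9 summed FPKM), the lowest fibroblast and synovium level (769.8) and the lowest tendon and ligament level (15.1). It was lowest as well for osteoblast and osteocyte (895.9), chondrocyte (112.7), vascular smooth muscle and pericyte (40.6), endothelial (38.9) and adipocyte markers (48.15). For the erythroid, neutrophil, macrophage and B cell lists it was not the lowest. The part of these tissues in the differences was not tested.

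The genes closest in pattern to the mean of the 8 tested genes, each standardised over the 15 libraries, were Fam114a1 (Pearson r = 0.96), Aebp1 (0.96), Col6a1 (0.95), Sulf1 (0.95), Col18a1 (0.95), Bgn (0.94), Clmp (0.94), Bmpr1a (0.94), Wwtr1 (0.94) and Loxl1 (0.94). With group means removed, r for these 10 was between 0.90 and 0.98. For single genes, the closest over 15 libraries was Ltbp4 for Eln (r = 0.92), Col12a1 for Fbn1 (0.95), Plvap for Fbln1 (0.97), Mrgprf for Fbln2 (0.95), Zbed6 for Fbln5 (0.92), Snx7 for Mfap2 (0.93), Dpt for Mfap5 (0.97) and App for Emilin1 (0.95). Such values are the highest among all 13653 genes tested and are given as a ranking. Bgn, the matrix proteoglycan biglycan, was 112 ± 14 FPKM in DMM and 72.3 ± 18.2 FPKM in sham bones (SD, n = 5). Dpt, the dermal fibroblast matrix protein dermatopontin, was 23.7 ± 12.6 against 6.72 ± 3.62 FPKM (limma adjusted p = 0.473).

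Partner genes of elastic fibre assembly were taken from lists of 43 genes, of which 31 were tested and 0 passed in any comparison. After DMM in wild-type mice, 22 of the 31 were higher and 9 lower (median log2 difference 0.27, against 0.00 over all genes tested), and 14 higher and 1 lower had p under 0.05 before adjustment, where 5.5% and 1.43% of all genes tested did. All 5 lysyl oxidases, which cross-link elastin and collagen, were higher (median 0.55). Loxl2 was 11.2 ± 3.37 FPKM in DMM and 4.71 ± 1.36 FPKM in sham bones (SD, n = 5) (log2 difference 1.09, SE 0.27, limma adjusted p = 0.244), and its DMM libraries, from 7.06 FPKM, were all above the sham ones, up to 5.91. Loxl1, which acts on elastin and binds fibulin-5, was 13.2 ± 2.21 against 8.75 ± 1.79 FPKM (adjusted p = 0.333), and Lox was 26.7 ± 3.68 against 17.8 ± 4.41 FPKM (adjusted p = 0.395).

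All 4 latent TGF-beta binding proteins, microfibril partners that anchor the latent growth factor, were higher after DMM (median 0.61). Ltbp1 was 5.86 ± 0.746 against 4.41 ± 0.585 FPKM (log2 difference 0.34, SE 0.10, limma adjusted p = 0.283). Ltbp3 had a log2 difference of 0.61 (adjusted p = 0.402) and Ltbp2 one of 0.63 (adjusted p = 0.44). Among 7 tested relatives of the fibulins, fibrillin and emilins, 2 were higher and 5 lower (median -0.04). Efemp2, the fibulin-4 that brings lysyl oxidase to elastin, was 6.7 ± 0.523 against 4.51 ± 0.902 FPKM (log2 difference 0.49, SE 0.13, adjusted p = 0.248), and Fbln7 had a log2 difference of 0.89 (adjusted p = 0.421). Efemp1, encoding fibulin-3, had the opposite sign, 2.94 ± 0.889 after DMM against 4.2 ± 0.87 FPKM (log2 difference -0.42, adjusted p = 0.623). The other fibrillin gene of the lists, Fbn2, was at 0.69 FPKM or less in all libraries and was not tested.

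Of the ADAMTS and ADAMTS-like genes of microfibrils, 3 of 10 were tested, and Adamtsl4, Adamtsl5 and Adamts10 had log2 differences of 0.19, 0.04 and 0.00 after DMM (adjusted p = 0.917, 0.965 and 0.997). Of 12 tested elastases and inhibitors, 9 were higher and 3 lower (median 0.20). Mmp2, a gelatinase that can cleave elastin, had a log2 difference of 1.40 (SE 0.28, limma adjusted p = 0.209), Mmp14, which activates it, 0.67 (adjusted p = 0.216), and the inhibitor Timp2 0.71 (adjusted p = 0.247). Mmp12, the macrophage elastase, was at 0.295 FPKM or less in all libraries. Between cKO and wild-type bones after DMM, 8 of the 31 partner genes were higher and 23 lower (median -0.15, against -0.02 over all genes), and in cKO against sham 22 were higher (median 0.31).

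With the level of fast skeletal muscle markers as a covariate, 11 of the 31 partner genes passed for DMM against sham in wild-type mice. Among all 13653 genes tested 289 passed in that setting, 277 of them higher, and without the covariate 0 of the 31 passed. The 11, all higher after DMM, were Mmp2, Mmp14, Timp2, Loxl1, Loxl2, Lox, Ltbp1, Ltbp3, Ltbp4, Efemp2 and Fbln7. Their log2 differences ran from 0.41 for Ltbp1 to 1.61 for Mmp2, and their limma adjusted p from 0.00318 for Mmp2 to 0.0498 for Loxl1. In the same setting Mmp2 passed for cKO against sham bones, where 22 of 13653 genes did (log2 difference 1.13, limma adjusted p = 0.044). The partner genes were not checked with libraries left out in this setting. The muscle markers behind the covariate were themselves 20 of 20 lower after DMM in wild-type mice, with 0 passing.

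Marker lists of the tissues that the bone samples could hold were compared in the same way. Erythroid and neutrophil lists had the highest summed levels, 23020 to 82610 and 14600 to 49070 FPKM over the libraries. Their median log2 differences after DMM were -0.17 and -0.03, those of macrophage and B cell markers -0.08 and 0.02, and 0 passed. The outlying cKO replicate 1 was the lowest library for erythroid and the highest for neutrophil markers. Of the fibroblast and synovium markers 13 of 13 were higher after DMM and 0 passed, with a median log2 difference of 1.07. Their mean log2 level was 3.59 to 4.88 in sham, 4.6 to 5.6 in DMM and 4.56 to 5.88 in cKO libraries. Col1a1, a bone and connective tissue collagen, led the list at a mean of 1024 FPKM after DMM and 868 after sham surgery, followed by Prg4, the lubricin of synovium and cartilage surface, at 136 and 104 FPKM. The 4 tendon and ligament markers tested, led by Fmod and Thbs4, were all higher (median 1.09). Vascular smooth muscle and pericyte markers, led by Rgs5 and Acta2, had a median of 0.29 with 7 of 8 higher, and endothelial markers one of 0.13. Osteoblast and osteocyte markers had a median of 0.37, with 8 of 10 higher and 0 passing. In cKO against wild-type bones after DMM, 10 of 10 osteoblast and osteocyte markers were lower (median -0.38) and 20 of 20 fast muscle markers higher (median 0.70), and 0 passed in either list. None of these lists had a marker at 0 throughout a group. The part of fibroblast, tendon, vessel, bone or blood cells in the levels of Mfap2 or Mfap5 was not tested.

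Fast skeletal muscle markers were 20 of 20 lower after DMM (median -0.81; 0 passed), with mean log2 levels of 2.44 to 6.93 in sham and 3.2 to 5.92 in DMM libraries. With this mean level as a covariate, 3 of the 8 genes passed for DMM against sham: Mfap2 (log2 difference 0.85, SE 0.12, limma adjusted p = 0.00325), Mfap5 (1.33, SE 0.28, adjusted p = 0.0246) and Fbln1 (0.58, SE 0.13, adjusted p = 0.0307), where 289 of 13653 genes did. In that setting Mfap2 passed with each of the 15 libraries left out in turn (adjusted p between 0.00348 and 0.0359), whereas Mfap5 and Fbln1 each passed in 8 of 15. For cKO against sham, 22 of 13653 genes passed with the covariate, Mfap2 among them (0.86, SE 0.11, limma adjusted p = 0.0136). Mfap2 did not pass there without sham replicate 4 (adjusted p = 0.0642) or cKO replicate 1 (adjusted p = 0.0538). The covariate is itself measured in these libraries, and without it 0 of the genes passed. Without DMM replicate 3 and cKO replicates 1 and 4, the log2 difference of Mfap2 was 0.63 for DMM against sham and 0.76 for cKO against sham.

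**Figure D4:**
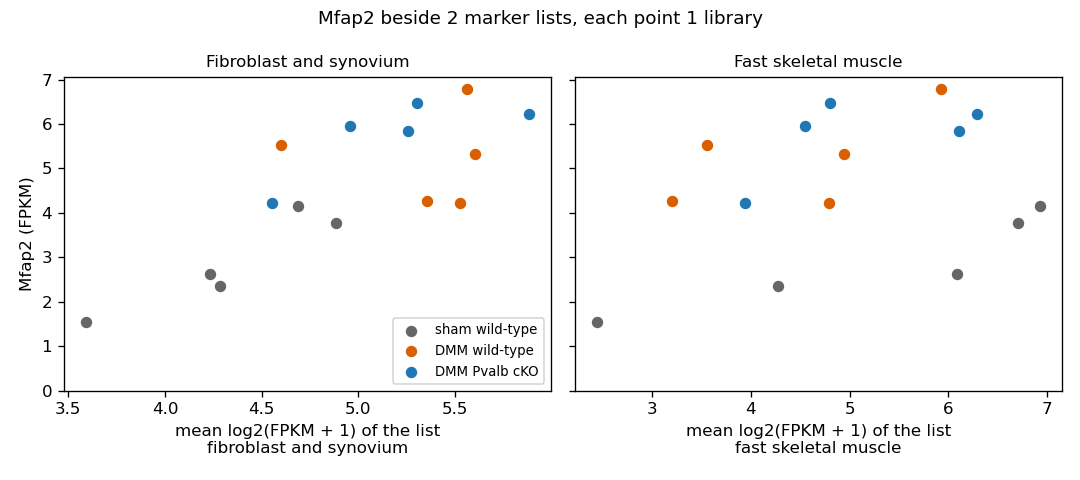
Mfap2 in FPKM (vertical axis, from 0) against the mean log2(FPKM + 1) of the fibroblast and synovium list (left) and of the fast skeletal muscle list (right), with 1 point per library coloured by group. Operated libraries lie at 4.21 FPKM or above at muscle levels from 3.2 to 6.29, and the sham libraries are lower on both axes in the fibroblast panel than most operated ones.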

How the data were processed

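RNA was sequenced in 15 libraries of tibial subchondral bone, 5 per group. Poly(A) RNA of powdered frozen bone went into dUTP libraries, per the labels' protocols. STAR 2.7.10a, featureCounts 2.0.3, Trimmomatic 0.39, FastQC 0.11.9 and build GRCm39 are listed in the submitters' processing notes. How FPKM was computed is not given in the sources used. The authors deposited FPKM for all libraries in 1 table whose columns matched the samples by library name (0 unmatched). The labels call the libraries biological replicates.

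Symbols were given to 55154 of 55335 IDs. The 13653 genes that reached 1 FPKM in 5 or more of the 15 libraries were tested on log2(FPKM + 1), a scale that understates changes of low genes, with limma 3.58.1 (R 4.3.3): a mean per group, an intensity trend, and Benjamini-Hochberg adjustment over all genes tested, with adjusted p under 0.05 as the threshold. Single genes were also tested by exact permutation over 252 arrangements. The fit was also run on simulated data with independent noise for each gene. That noise holds no variation shared between genes, so the run does not test the fit under such variation. The members, lists, alternatives and naming rule were chosen with earlier results of these data known. All members were named, with up to 3 partner genes per list of smallest p for DMM against sham, the genes of highest correlation, and the 2 most abundant markers per list named. Added after seeing these values were Fbn2, Mmp12, and the muscle covariate with each library left out. Sequences are RefSeq's, of build GRCm38.p6, and exon overlaps are from GENCODE M21 of the same build, not that of the FPKM. Figures were drawn with matplotlib 3.10.9.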

Additional observations from a re-analysis of the deposited data

Results flagged for a closer look

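In the 27 sets of 5 libraries formed by the 9 genes and 3 groups, 2 had a library far from the others of its group by Dixon's criterion, which chance meets in about 1 of 20 groups. Eln was 3.32 FPKM in DMM wild-type replicate 2, above the other 4 libraries of that group. Mfap2 was 4.23 FPKM in DMM cKO replicate 2, below the other 4 and still above every sham library.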

How the results depend on the processing

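Each comparison was recomputed with other pseudocounts, filters, scalings, covariates and weights, and with libraries left out. Of the elastic fibre genes, 0 passed in any comparison under any of them, except with the fast muscle covariate, which gave 3 for DMM against sham and 1 for cKO against sham. With that covariate and 1 library left out, an alternative added after seeing the data, the counts ran from 1 to 4 and from 0 to 2. The direction for DMM against sham was kept by 7 of the 8 genes under all alternatives in which they were tested, and Mfap2 ran from 0.57 to 0.93. With a pseudocount of 0.1, Mfap5 moved from 1.05 to 1.74 for DMM and from 1.34 to 2.15 for cKO against sham, with no call gained. A filter of 5 FPKM left 3 of the genes. The number of all genes passing for DMM against sham, 0, was 289 with the muscle covariate, 15 with array weights, 2 with no filter and 0 to 2 with 1 library left out. For cKO against wild-type DMM, 1 gene became 4 with array weights, 2 with no filter and 1 to 2 with 1 left out. For cKO against sham, 4 became 22 with array weights, 22 with the muscle covariate, 7 with median-of-ratios scaling, no filter or without the 3 outlying libraries (DMM replicate 3, cKO replicates 1 and 4), and 2 to 8 with 1 left out.

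Small differences changed sign. For cKO against wild-type DMM, Emilin1 was 0.032 with median-of-ratios scaling (-0.136 to 0.103 with 1 library left out). Fbln5 was 0.03 with that scaling, 0.076 with array weights and 0.031 without the 3 libraries (-0.095 to 0.029). Fbln1 was 0.146 and 0.044 with array weights and without the 3 libraries. Fbln2 was -0.126 with the muscle covariate (-0.177 to 0.26 with 1 left out). Against sham, cKO Emilin1 was 0.028 with array weights, 0.032 with median-of-ratios scaling and 0.099 without the 3 libraries (-0.068 to 0.123), cKO Eln ran from -0.053 to 0.216 and DMM Emilin1 from -0.034 to 0.132. The causes were not tested.

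Replicate numbers recur across groups, but deviations of same-numbered libraries correlated from -0.46 to 0.40 over the 3 comparisons, so they were not taken as pairs. For DMM against sham alone, r was 0.10 to 0.40 for numbers 1 to 4, each closest to its own number, and -0.24 for number 5. With the replicate block, 0 of the elastic fibre genes passed, and the count for cKO against sham was 1. Without read counts, what depth limits for the low genes Mfap4 and Mfap5 is unknown.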
